A study of Mus musculus with 2 samples.

Results

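The genes described here are 10 core genes of TGF-beta signalling. They are the ligand genes Tgfb1, Tgfb2 and Tgfb3, the receptor genes Tgfbr1 and Tgfbr2, the signal transducer genes Smad2, Smad3 and Smad7, and Furin and Ltbp3, whose products process and store the ligands. They were chosen by gene symbol, and all 10 are among the 14774 genes listed with mapped reads in the deposited table. Total RNA was sequenced from C57BL/6 mouse spleen cells selected as CD4+CD25+ and labelled as regulatory T cells (Tregs), after 5 days in co-culture with SVEC4-10, an SV40-transformed mouse endothelial cell line. In 1 group the SVEC4-10 cells had received a control oligonucleotide and in the other small interfering RNA directed at Capns1, the gene of the regulatory subunit shared by the conventional calpains. The co-cultured spleen cells of both groups were of the same strain and sort, and only the endothelial partner was treated. Each group has 1 library, called here the control library and the knockdown library.

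TGF-beta is made as a precursor that the protease furin cuts into the mature growth factor and its propeptide, which stay bound to each other and keep the factor latent. Latent TGF-beta binding proteins tether this complex in the extracellular matrix, while GARP (Lrrc32) and NRROS hold it on Tregs and on myeloid cells, and integrins or thrombospondin release it. The active factor binds the type II receptor, which recruits and phosphorylates the type I receptor, and this in turn phosphorylates SMAD2 and SMAD3, which enter the nucleus with SMAD4. SMAD7 is induced by the pathway and inhibits the type I receptor. In T cells TGF-beta supports Foxp3 induction, and Tregs both respond to the factor and activate it.

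The promoters of Tgfb1, Tgfb2 and Tgfbr2 are shown because these genes had a ligand level close to equal in both libraries, the highest fold and the lowest fold among the 10. Each line holds the 250 bases before the RefSeq transcript start, 5′ to 3′ on the gene's strand, in build GRCm38.p6. Capitals mark matches on either strand to 4 motifs. These are the GC box, bound by Sp1, with letters GGGCGG, the TATA box of many regulated genes, searched as TATAAA, the E-box of basic helix-loop-helix factors, searched as CACGTG, and the pentamer CCAAT, bound by NF-Y.
Tgfb1 (chr7:25686752-25687001, plus strand): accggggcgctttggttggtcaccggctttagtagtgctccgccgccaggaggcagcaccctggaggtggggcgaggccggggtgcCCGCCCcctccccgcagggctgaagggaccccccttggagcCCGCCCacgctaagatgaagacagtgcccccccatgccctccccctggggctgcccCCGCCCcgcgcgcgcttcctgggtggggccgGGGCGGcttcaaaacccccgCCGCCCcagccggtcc
Tgfb2 (chr1:186705990-186706239, minus strand): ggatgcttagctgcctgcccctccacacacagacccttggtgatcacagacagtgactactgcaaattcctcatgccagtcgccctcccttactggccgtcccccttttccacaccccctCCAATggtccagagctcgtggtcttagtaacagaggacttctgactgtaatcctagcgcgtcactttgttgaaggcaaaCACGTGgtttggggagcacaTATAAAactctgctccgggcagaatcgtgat
Tgfbr2 (chr9:116175364-116175613, minus strand): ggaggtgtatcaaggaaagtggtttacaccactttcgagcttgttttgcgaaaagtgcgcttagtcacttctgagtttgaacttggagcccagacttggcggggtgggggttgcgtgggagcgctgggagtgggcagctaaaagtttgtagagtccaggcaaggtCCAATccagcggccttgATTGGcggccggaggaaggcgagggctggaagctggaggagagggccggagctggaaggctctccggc
The Tgfb1 window held 5 GC boxes and none of the other 3 motifs, and 75.2% of its bases were G or C. The Tgfb2 window held a TATA box that begins 31 bases before the start, an E-box at 51 bases and a CCAAT at 130 bases, with 53.6% G or C. The Tgfbr2 window held 2 CCAAT matches, at 85 and 68 bases, and no TATA or GC box, with 58.4% G or C. Of 32851 RefSeq promoter windows of the same length, 32.7% held a GC box, 12.4% a TATA box, 6.02% an E-box and 33.8% a CCAAT, and the median window was 52.4% G or C. The palindromic SMAD element GTCTAGAC, found in 0.167% of windows, and the cyclic AMP element TGACGTCA, found in 1.55%, had 0 matches in these 3 windows. The matches describe the letters only, since no binding or promoter activity was measured.

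The control library holds 48100576 reads by its deposited total and the knockdown library 47300284. No difference has a replicate check, so no p-value is given. The 95% interval printed after a fold is the exact interval of that gene's read ratio. It compares 2 libraries, not 2 conditions, and covers counting error only, with each read taken as an independent molecule, which without molecular identifiers it may not be. Folds are knockdown over control in CPM, counts per 1e6 reads after TMM library scaling. The direction of every fold rests on reading the table's column prefixes Cont and Si as control and interfering RNA. Capns1 itself stood at 243 and 236 CPM, a fold of 0.969 (0.944 to 0.994). The 11 measured T cell and Treg markers summed to 191 CPM (control) and 188 CPM (knockdown). The sums were larger for 10 markers of B cells (2967 and 2644 CPM), 12 of macrophages and monocytes (1316 and 936 CPM) and 13 of matrix-producing cells (2885 and 2769 CPM), so markers of the labelled cell type were not the most abundant. Lck, a kinase of the T cell receptor, made up 73.4 and 76.9 CPM of the T cell sum. All 12 macrophage and monocyte intervals (100%) and 9 of 10 B cell intervals (90%) lay below 1, against 22.7% of all genes. Their median log2 folds were -0.83 and -0.18. Of the T cell and Treg intervals 3 of 11 lay below 1 (27.3%, against 22.7% of all genes) and 1 above (9.09%, against 24.2%). The other 7 included 1, and the median log2 fold was -0.07. Those below were of Cd4 at 0.759 (0.650 to 0.886), Cd28 at 0.826 (0.728 to 0.937) and Cd3d at 0.917 (0.843 to 0.997). The interval above was that of Lck, at 1.05 (1.0001 to 1.10). The 9 measured erythroid and platelet markers summed to 2626 and 2354 CPM. Of their intervals 6 lay below 1 (66.7%, against 22.7% of all genes) and 0 above (against 24.2%). Those below were of the globin genes, Alas2 and the platelet factor gene Pf4, at 0.417 (0.373 to 0.466). The other platelet markers had intervals that included 1, with Ppbp at 0.928 (0.746 to 1.15), Itga2b at 1.08 (0.981 to 1.19) and Gp1bb at 0.878 (0.667 to 1.15). Endothelial markers, those of the partner cells' type, were measured for 5 of 14 and summed to 115 and 112 CPM. Of their intervals 1 lay above 1 (20%, against 24.2% of all genes) and 1 below (20%, against 22.7%). Each listed gene has at least 100 control reads, so markers under that limit are not analysed here.

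None of the 10 genes was 2-fold apart between the libraries, where 0.142% of all genes were, 0.00677% higher and 0.135% lower. At the finer scale of counting error, 5 of the 10 had an interval below 1 and 2 an interval above 1, against 22.7% and 24.2% of all genes, 46.9% in either direction. The 5 were Tgfbr2, Tgfbr1, Tgfb3, Smad7 and Smad2, and the 2 were Ltbp3 and Tgfb2. With 99% intervals those of Tgfbr2 and Ltbp3 still excluded 1, and those of the other 5 included it. Such intervals are narrower for genes with more reads, and the 10 genes had a median of 2938.5 control reads against 1429 over all genes. Among the 7188 genes whose reads in both libraries summed to at least 3000, 27.9% of intervals lay below 1 and 33.1% above, and of the 9 members among them 5 lay below and 1 above. The median log2 fold of the 10 was -0.05, against 0.00 over all genes, whose standard deviation was 0.20. In bulk RNA, fewer cells of a type and less RNA per cell cannot be told apart.

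**Figure D1:**
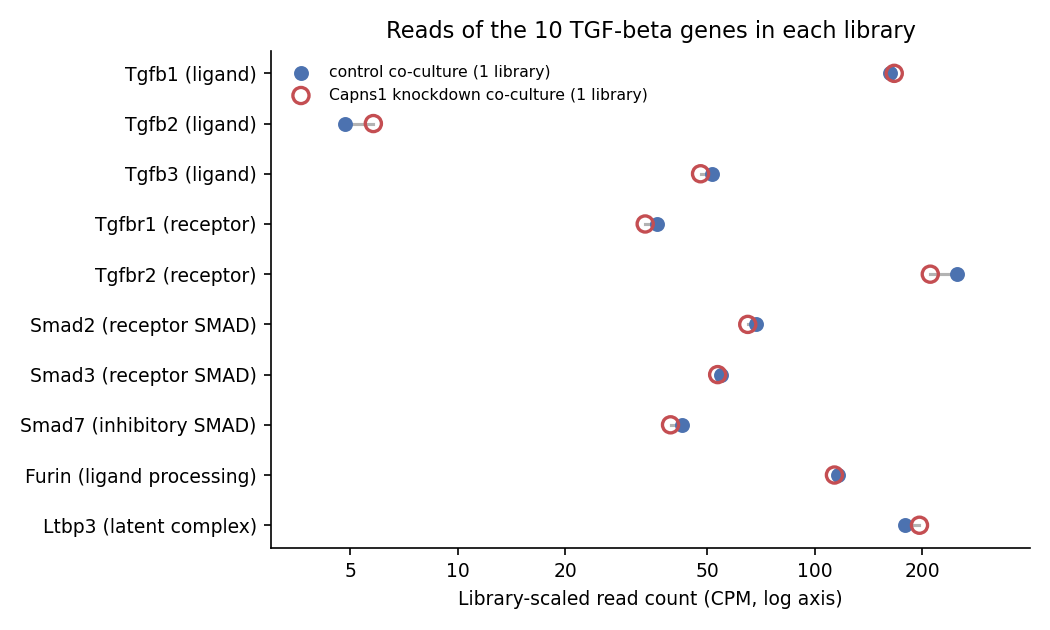
Library-scaled reads (CPM, log axis) of the 10 genes in the control library (filled) and the knockdown library (open), 1 library each. The points of most genes nearly coincide, with the widest gap in reads at Tgfbr2 (249 and 211 CPM).

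Of the ligands, Tgfb1, the isoform of lymphocytes and platelets, was read 7802 times in the control and 7803 times in the knockdown library, at levels of 163 and 167 CPM. Its fold was 1.02 (0.993 to 1.06), so the libraries did not differ beyond counting error. Tgfb3, an isoform known from palate and wound repair, had 2468 and 2237 reads, or 51.5 and 47.8 CPM. That is a fold of 0.929 (0.877 to 0.984), lower in the knockdown library. Tgfb2, the isoform most tied to heart and vessel development, had the fewest reads of the 10, with 231 and 271, or 4.82 and 5.80 CPM. Its fold of 1.20 (1.005 to 1.44) was the highest of the 10 and the least precise. Yet the interval included 1 with total-count or upper-quartile scaling. The 3 ligands together stood at 219 and 221 CPM, a fold of 1.01 (0.979 to 1.03).

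The make-up of the ligand reads was nearly the same in both libraries and led by Tgfb1. Tgfb1 took 74.3% of ligand reads in the control library (exact binomial 95% interval 73.5 to 75.1) and 75.7% in the knockdown library (74.8 to 76.5). Tgfb3 took 23.5% (22.7 to 24.3) and 21.7% (20.9 to 22.5), and Tgfb2 2.20% (1.93 to 2.50) and 2.63% (2.33 to 2.96). Per base of transcript the share of Tgfb1 was 79.7% and 80.9%. A ratio of 2 genes within a library does not depend on the library scaling, and 7 such pairs of like role were compared. The ratio of Tgfb3 to Tgfb1 reads was 0.316 in the control and 0.287 in the knockdown library, a ratio of ratios of 0.906 (0.849 to 0.968). For Tgfb3 over Tgfb2 it was 0.773 (0.639 to 0.933), and for Tgfb2 over Tgfb1 1.17 (0.978 to 1.41), an interval that includes 1.

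Ltbp3, the latent TGF-beta binding protein known for its part in bone and tooth growth, had 8578 and 9183 reads, or 179 and 196 CPM. It was higher in the knockdown library, with a fold of 1.10 (1.065 to 1.13) that exceeded those of 80.1% of all genes. Furin, which encodes the convertase that cuts the ligand precursor, had 5549 and 5306 reads, or 116 and 113 CPM. Its fold was 0.980 (0.943 to 1.02), with no difference beyond counting error. The ratio of Ltbp3 to Furin reads went from 1.55 to 1.73, a ratio of ratios of 1.12 (1.07 to 1.17). The longest transcripts of both genes are of nearly the same length, 5729 and 5736 bases.

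Among the other genes of ligand storage and activation, 13 of 16 were measured. The intervals of 3 lay above 1 (23.1%, against 24.2% of all genes), those of 4 below (30.8%, against 22.7%) and 6 included 1. The median log2 fold of the 13 was -0.004. Those above were Ltbp4, the latent binding protein of elastic fibres, at 1.12 (1.06 to 1.18), the convertase gene Pcsk7 at 1.14 (1.07 to 1.20) and Fkbp10, an endoplasmic reticulum foldase for collagen, at 1.11 (1.06 to 1.16), all 3 named after their values were seen. Those below included Thbs1, which encodes the activator thrombospondin 1 and was the most abundant of this list in both libraries, with 14683 and 11880 reads and a fold of 0.829 (0.809 to 0.849). Nrros, the myeloid anchor of latent TGF-beta, had 7191 and 6108 reads and a fold of 0.870 (0.841 to 0.901). Itgav, the integrin alpha V chain that binds latent TGF-beta, stood at 0.887 (0.856 to 0.919). Fbn1, the microfibril protein fibrillin 1, named after its value was seen, stood at 0.891 (0.858 to 0.924). At the transcript lengths of Itgav and Fbn1 the length trend described below was -0.080 and -0.130, against log2 folds of -0.173 and -0.167. Lrrc32, the Treg anchor GARP, also chosen after seeing its value, was read only 118 and 127 times, a fold of 1.10 (0.852 to 1.43), so a difference of this size was not detectable at this depth. Nrros and Thbs1 are expressed by macrophages, whose 12 measured markers were all lower in the knockdown library. The part of this in their folds was not tested.

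**Figure D2:**
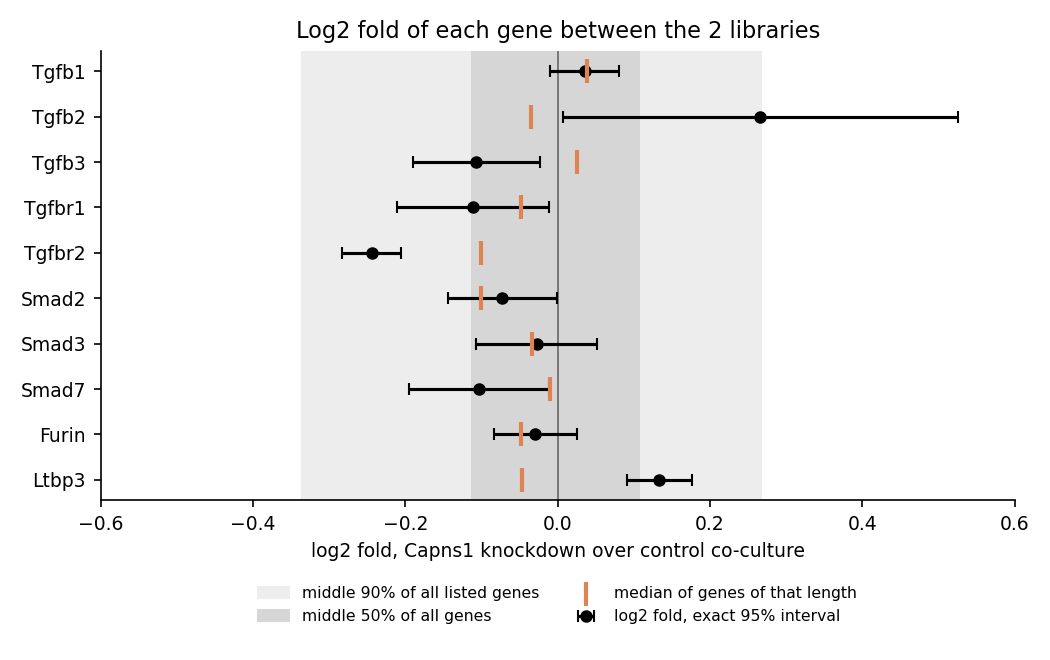
Log2 fold, knockdown over control, of each of the 10 genes with its exact 95% interval (points and bars). Grey bands hold the middle 50% and 90% of all listed genes, and orange ticks mark the median of genes of the same transcript length. Tgfbr2 and Ltbp3 lie outside the inner band with narrow intervals, and Tgfb2 has the widest interval.

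The receptors were lower in the knockdown library. Tgfbr2, the type II receptor that binds the ligand, was read 11951 times in the control and 9846 times in the knockdown library, at 249 and 211 CPM. It had the most reads of the 10 and the lowest fold, 0.844 (0.822 to 0.867), below which 9.44% of all genes lay. Tgfbr1, the type I receptor kinase, had 1732 and 1565 reads, or 36.2 and 33.5 CPM. Its fold was 0.926 (0.864 to 0.992). Both receptors together stood at 286 and 244 CPM, a fold of 0.855 (0.833 to 0.876), whereas the 3 ligands together stood at 1.01.

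Before any correction for transcript length, the gap between the receptors exceeded counting error too. The ratio of Tgfbr2 to Tgfbr1 reads was 6.90 in the control and 6.29 in the knockdown library, a ratio of ratios of 0.912 (0.847 to 0.982). Tgfbr1 took 12.7% of receptor reads (12.1 to 13.2) in the control and 13.7% (13.1 to 14.4) in the knockdown library. With the trend of folds on transcript length removed, Tgfbr2 stayed lower at 0.905, while the interval of Tgfbr1 included 1. The ratio of ratios is not corrected for this trend. The log2 folds of the 2 receptors differed by -0.133, and the trend at their lengths by -0.052. Receptor RNA is carried by many cell types. The summed markers of every cell type listed were also lower in the knockdown library, by the values above. Their part in the receptor result was not tested.

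Other receptors and co-receptors were measured for 7 of 8 genes, with a median log2 fold of -0.05. Among them 1 interval lay above 1 (14.3%, against 24.2% of all genes), 2 below (28.6%, against 22.7%) and 4 included 1. Dab2, an endocytic adaptor that binds TGF-beta receptors and SMADs, had 5203 and 3425 reads and the lowest fold of all pathway genes listed, 0.675 (0.646 to 0.704). Macrophages express it as well. Cd109, a co-receptor that limits signalling, stood at 0.848 (0.765 to 0.941). Cav1, the caveolae protein that takes up receptors, went the other way, with 4871 and 5542 reads and a fold of 1.17 (1.12 to 1.21). The co-receptors Tgfbr3 (betaglycan) at 0.974 (0.872 to 1.09) and Eng (endoglin) at 1.002 (0.853 to 1.18), named after their values were seen, had intervals that included 1.

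The signal transducers differed little. Smad2 had 3268 and 3033 reads, or 68.2 and 64.9 CPM. The fold was 0.951 (0.905 to 0.999), with an interval that only just excluded 1. Smad3 had 2609 and 2498 reads, or 54.5 and 53.4 CPM, which gives 0.981 (0.928 to 1.04). The ratio of Smad3 to Smad2 was 0.798 and 0.824, a ratio of ratios of 1.03 (0.958 to 1.11), so no difference between these close relatives was detectable at this depth. Their longest GENCODE transcripts share 0 runs of 50 bases, so reads of that length or more that match exactly would not be split between them.

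Smad7, the inhibitory SMAD and itself a target of the pathway, had 2028 and 1843 reads, or 42.3 and 39.4 CPM. Its fold of 0.931 (0.874 to 0.992) was lower in the knockdown library, and its ratio to Smad3 did not move beyond counting error, at 0.949 (0.872 to 1.03). The 3 SMAD genes together stood at 165 and 158 CPM, a fold of 0.956 (0.926 to 0.987). Of the partners of SMAD2 and SMAD3, 9 of 10 were measured. Among them 1 interval lay above 1 (11.1%, against 24.2% of all genes and 33.1% of those with at least 3000 reads). Another 4 lay below (44.4%, against 22.7% and 27.9%) and 4 included 1. Their median log2 fold was -0.06, and -0.02 with the length trend described below removed. Those below 1 included the histone acetyltransferase coactivators Ep300 at 0.827 (0.806 to 0.849) and Crebbp at 0.900 (0.866 to 0.935), and Trim33, a ubiquitin ligase that binds phosphorylated SMADs, at 0.830 (0.797 to 0.864). The fourth was the importin gene Ipo8, named after its value was seen, at 0.941 (0.901 to 0.982). At the transcript lengths of Ep300, Crebbp and Trim33 the length trend was -0.124, -0.130 and -0.113, against log2 folds of -0.274, -0.152 and -0.269. Strap, a WD-repeat protein that strengthens SMAD7 binding to the receptor and by mean CPM over both libraries the most abundant of these partners, stood at 1.10 (1.07 to 1.12).

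Negative regulators other than Smad7 were measured for 14 of 14 genes. Among them 7 intervals lay above 1 (50%, against 24.2% of all genes and 33.1% of those with at least 3000 reads). Another 4 lay below (28.6%, against 22.7% and 27.9%) and 3 included 1. The median log2 fold of the 14 genes was 0.08, and 0.03 with the length trend described below removed. Ppp1ca, the catalytic subunit of protein phosphatase 1 and the most abundant of them, had 22789 and 24065 reads and a fold of 1.08 (1.06 to 1.10). Ppp1r15a, also called Gadd34, which brings that phosphatase to the type I receptor with SMAD7, stood at 1.12 (1.09 to 1.15). Skil, the SMAD corepressor SnoN, stood at 0.907 (0.873 to 0.942). At the transcript length of Skil the length trend was -0.072, against a log2 fold of -0.141. Of the 3 genes listed both as targets and as brakes of the pathway, Smad7 and Skil were lower in the knockdown library and Pmepa1, named after its value was seen, was higher, at 1.07 (1.02 to 1.12).

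Of the 25 targets other than Smad7, 24 were measured. Among them 13 intervals lay above 1 (54.2%, against 24.2% of all genes and 33.1% of those with at least 3000 reads). Another 4 lay below (16.7%, against 22.7% and 27.9%) and 7 included 1. The median log2 fold of the 24 targets was 0.08, and with the length trend described below removed it was 0.02. The contractile genes led, with Tagln (transgelin) at 809 and 1149 reads and a fold of 1.46 (1.33 to 1.59), and Acta2 (smooth muscle actin) at 2025 and 2600 reads and 1.32 (1.24 to 1.39). Of targets named after their values were seen, Snai2 stood at 1.28 (1.17 to 1.41), the protease inhibitor gene Timp1 at 1.22 (1.13 to 1.32) and the matricellular gene Ccn2 at 1.14 (1.09 to 1.199).

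Not all targets lay on that side. Tgfbi, an extracellular matrix protein named for its induction by TGF-beta and also abundant in macrophages, had 643 and 465 reads and a fold of 0.741 (0.656 to 0.836). Fn1 (fibronectin), the most abundant target by mean CPM over both libraries, had 30647 and 26672 reads and a fold of 0.892 (0.877 to 0.907). At the transcript length of Fn1 the length trend was -0.104, against a log2 fold of -0.165. Klf10, an early response factor named after its value was seen, stood at 0.881 (0.823 to 0.944). Several of these targets are also markers of matrix-producing cells, whose median log2 fold was -0.04. Of their 13 intervals 2 lay above 1 (15.4%, against 24.2% of all genes) and 4 below (30.8%, against 22.7%). Which cells carried the target reads was not measured.

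Levels between genes were compared as CPM per kilobase of the longest GENCODE M21 transcript. Tgfb1 led in both libraries, at 63.3 in the control and 64.9 in the knockdown library. Ltbp3 followed at 31.3 and 34.3, Tgfbr2 at 30.8 and 26.0, Furin at 20.2 and 19.8 and Tgfb3 at 15.2 and 14.1. Smad3 at 10.7 and 10.5, Smad7 at 9.89 and 9.21, Smad2 at 8.43 and 8.02 and Tgfbr1 at 6.28 and 5.81 came next. Tgfb2 was last, at 0.942 and 1.13. The order of the 10 was the same in both libraries. The neighbours Ltbp3 and Tgfbr2 did not differ beyond counting error in the control library, with a ratio of 1.01 (0.986 to 1.04), and stood apart in the knockdown library at 1.32 (1.28 to 1.36). All other neighbours differed beyond counting error in both libraries. The order depends on which transcripts are expressed, which the table does not give, and with the median transcript length 3 of the 10 genes kept their place in each library.

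Longer transcripts had lower folds across all genes, and most of the 10 genes are long. Over the 13381 genes with a transcript length, the median log2 fold ran from 0.09 in the shortest length decile to -0.11 in the longest. Tgfbr2 and Smad2, with longest transcripts of 8092 and 8089 bases, lie in the longest decile. Within it 14.9% of genes had a lower fold than Tgfbr2 and 61.4% a lower fold than Smad2. Ltbp3 and Tgfb2 lay above 92.6% and 97.6% of the genes of their own length classes, and Tgfb1 above 49.9%. With the length trend removed, the median log2 fold of the 10 was 0.002, the folds of Tgfb1, Smad2, Smad3 and Furin crossed 1 with intervals that include 1, and 3 intervals stayed below 1, those of Tgfb3, Tgfbr2 and Smad7. Why folds go with length was not tested.

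**Figure D3:**
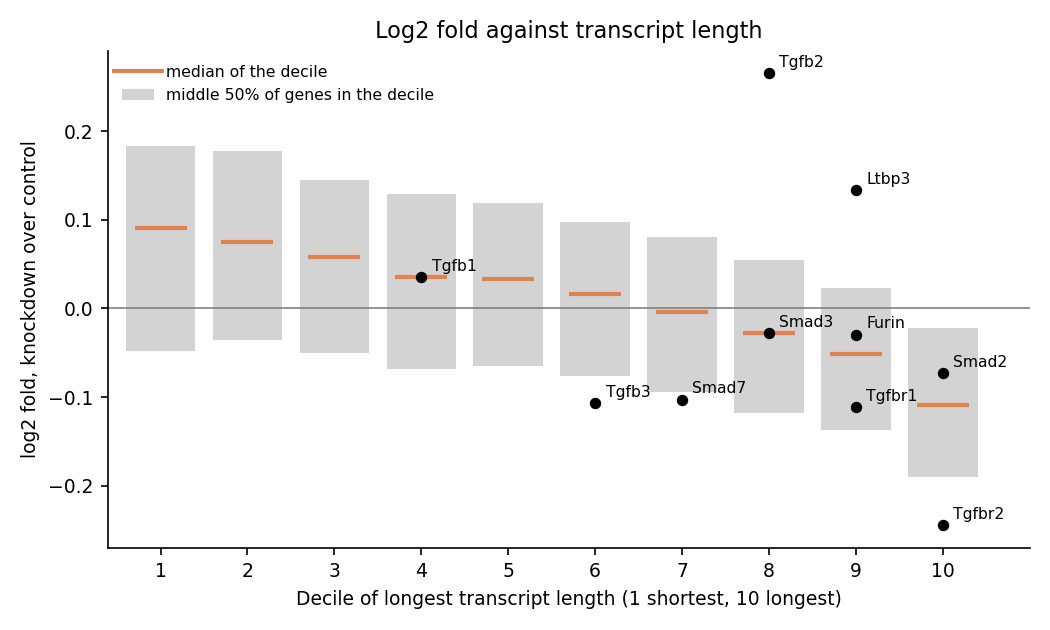
Log2 fold, knockdown over control, against decile of longest transcript length. Grey bars hold the middle 50% of genes of each decile, orange lines are decile medians and points are the 10 core genes. The medians fall from 0.09 to -0.11, Tgfb1 sits on its decile's median, Tgfbr2, Tgfb3 and Smad7 lie below the grey bars of theirs, and Ltbp3 and Tgfb2 above.

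Some reads of these genes may belong to others, since the strand setting of the counting is unknown here. In GENCODE M21, exons of other genes lie opposite those of Tgfb2, Tgfb3 and Furin. Of the 50-base runs of the longest Tgfb3 transcript, 8.79% also occur, on either strand, in the opposite-strand genes Gm48008 and Gm37804. For Tgfb1, Tgfb2, Tgfbr1, Tgfbr2, Smad2, Smad3, Smad7 and Furin the share was under 1%.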

How the data were processed

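The samples are 2 libraries of total RNA, grouped by treatment label. The deposited counts are mapped reads per gene, not normalized, per the file headers. The authors also deposited total-scaled and TMM-scaled values (signal) and, in an unnamed column, log2 ratios, which equal the log2 ratio of the total-scaled columns to within 0.005, and none of these was used for a result. Per the submitters' processing notes Trimmomatic 0.39, BWA 0.7.17, mm8 and GRCm39 were used, with no role stated for any, so no coordinates of the counted genes are given. BWA is not splice-aware, so reads across exon junctions can be clipped or lost.

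Reads of no listed gene, 0.782% and 0.764% of the totals, were left out. All listed genes have at least 100 control reads, while 402 have fewer in the knockdown library. TMM sizes came from edgeR 4.0.16 under R 4.3.3 (factors 1.004 and 0.996), and the rest was computed in Python 3.11.15 with scipy 1.17.1. With 1 library per group no dispersion can be estimated, so a Clopper-Pearson interval on the read ratio, exact under binomial counting, took the place of a test. A call needed a fold of at least 2 or at most 0.5 and an interval excluding 1. The minimum for entry was 1 CPM in either library and 10 reads over both, which all genes met, and log2 folds used a prior count of 0.5. Ratios between 2 genes used the exact conditional interval of the odds ratio. The length trend is the median log2 fold in 20 length bins, interpolated. The intervals were tested on simulated Poisson counts, the counting model that they assume, and the trend on simulated lengths and folds. Such data hold no difference between replicate libraries, so the test cannot cover it. Promoter sequences are from RefSeq (GRCm38.p6), which matched 7 of the 10 genes, and the motifs and the reads limit of 3000 were chosen after the data were seen.

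The 10 genes, the pathway lists and the marker lists were chosen with earlier results of these data known. The rule for named genes takes the 10 genes and Capns1, and from each pathway list the most abundant gene and up to 3 with at least 400 reads in both libraries whose fold is farthest from 1 at the nearer interval bound. Other genes are named where stated, and some results are not reported here.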

Additional observations from a re-analysis of the deposited data

How the results depend on the processing

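With DESeq2 1.42.0 size factors, the counts of intervals above and below 1 among the 10 genes were as given. Using no filter on low values, or a filter of at least 5 CPM in a library, could not change these counts. All genes met the main filter, and each of the 10 reached 5 CPM in a library. With these settings, total counts, upper-quartile scaling, the length trend removed or lower fold thresholds, 0 of the 10 were past the threshold. With total counts or upper-quartile scaling 1 interval lay above 1, that of Ltbp3, since the interval of Tgfb2 then included 1. With 99% intervals 1 lay above 1 (Ltbp3) and 1 below (Tgfbr2). With the length trend removed 3 lay below 1, and the log2 folds of Tgfb1, Smad2, Smad3 and Furin moved to -0.0033, 0.028, 0.0067 and 0.018, on the other side of 0 from the values given and with intervals that include 0. The median log2 fold of the SMAD partner list with Smad2 and Smad3 then moved from -0.06 to 0.0067. With the median transcript length, 3 of the 10 genes kept their place in the order of levels in the control library and 3 in the knockdown library. Of 88 counts, medians and level orders recomputed in all, 80 stayed within a set margin of the value given. For counts and orders the margin was 1.5 times. For medians it ran from the median lower to the median upper interval bound of the single genes, which is not the counting error of a median. The median of the 10, at -0.05 as given and 0.002 with the length trend removed, counts as within it. Some settings could not change a value. No paired analysis was possible because each group has 1 library, and for the same reason no replicate could be left out. Depth limits Tgfb2 most, with 502 reads in both libraries together, and how far replicate cultures differ is unknown.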

Other observations

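The neighbouring BMP and activin branch of the same family was measured for 17 of 23 genes, with a median log2 fold of 0.00. Among them 3 intervals lay above 1 (17.6%, against 24.2% of all genes), 4 below (23.5%, against 22.7%) and 10 included 1. The activin subunit gene Inhba was read 3135 times in the control and 3714 times in the knockdown library, a fold of 1.21 (95% interval 1.16 to 1.27), and Inhbb, the other activin subunit gene, named after its value was seen, stood at 1.19 (1.06 to 1.33). The type II receptors of this branch were lower. Acvr2a, which binds activin, had 1231 and 995 reads and a fold of 0.828 (0.761 to 0.901). Bmpr2, the BMP type II receptor, had 4162 and 3521 reads and a fold of 0.867 (0.829 to 0.907). At the transcript lengths of Acvr2a and Bmpr2 the length trend was -0.046 and -0.130, against log2 folds of -0.272 and -0.206. Acvr2b, named after its value was seen, stood at 0.920 (0.792 to 1.07), an interval that includes 1. Fstl1, a secreted follistatin-like protein and the most abundant gene of this list, stood at 1.03 (0.991 to 1.07).

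Genes of TGF-beta signalling outside the SMADs were measured for 16 of 16, with a median log2 fold of -0.01. Among them 3 intervals lay above 1 (18.75%, against 24.2% of all genes), 4 below (25%, against 22.7%) and 9 included 1. Rhoa, the small GTPase of the actin cytoskeleton and the most abundant, had 21483 and 21627 reads and a fold of 1.03 (1.01 to 1.05). Traf4, an adaptor recruited to the active receptor, stood at 1.15 (1.09 to 1.21). Rock1, a kinase that acts on the actin cytoskeleton, stood at 0.904 (0.874 to 0.934) and Sos1, which activates Ras, at 0.911 (0.876 to 0.947). At the transcript lengths of Rock1 and Sos1 the length trend was -0.066 and -0.106, against log2 folds of -0.146 and -0.134. Map3k7, which encodes the kinase TAK1 and was named after its value was seen, stood at 0.988 (0.948 to 1.03). Over all pathway lists without the 10 core genes, 98 of 109 genes were measured, and 30 intervals (30.6%) lay above 1 and 25 (25.5%) below. The shares were 24.2% and 22.7% over all genes, and 33.1% and 27.9% over those with at least 3000 reads.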
